A study of Caenorhabditis elegans with 6 samples.

Results

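Normalized counts of 5 *Caenorhabditis elegans* genes lay far apart between the libraries labelled *fmo-4* OE and the wild type (WT) libraries, with no overlap. These genes are *D2030.7*, *gfi-1* (*F57F4.3*), *B0205.13*, *C18D4.6* and *W06A11.4*, and they are 5 of the 20138 genes in the deposited table. They were chosen by that distance in normalized counts, so their values between the groups are given as a description and carry no p-value. All 5 were among the 13413 genes that passed the filter on low counts. *D2030.7* and *gfi-1* were lower under the *fmo-4* OE label, and *B0205.13*, *C18D4.6* and *W06A11.4* were higher.

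Polyadenylated RNA was measured in untreated day 1 adults, whole body, grown from the egg on 3x concentrated OP50, the *E. coli* strain on which the worms feed. There were 3 libraries of WT and 3 labelled *fmo-4* OE, numbered 1 to 3 as biological replicates. *fmo-4* encodes a flavin-containing monooxygenase, an enzyme family that oxidizes nitrogen and sulfur groups of small molecules. Overexpressing strains in the study carried *fmo-4* on a multicopy transgene array integrated at random, driven by either the ubiquitous *eft-3* or the hypodermal *dpy-7* promoter and followed by the *let-858* 3′UTR. By qPCR the study reported *fmo-4* far above WT in both of these strains. The sample labels do not say which of them gave the libraries.

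The libraries held 17576872 to 24943501 reads assigned to genes. *fmo-4* itself went against the label. Its normalized counts were 480 ± 42.8 (SD, n = 3) in WT and 407 ± 49.8 (SD, n = 3) under the *fmo-4* OE label, a log2 fold change of -0.24 (SE 0.18, adjusted p = 0.947, edgeR quasi-likelihood test over all genes tested), so every direction here is that of the label. Each WT library (528, 449 and 462) was above each library labelled *fmo-4* OE (425, 446 and 351), as in 5.26% of all genes tested. *let-858*, whose 3′UTR the transgene carries, was at 2618 ± 137 (SD, n = 3) in WT and 2485 ± 58.8 (SD, n = 3) under the *fmo-4* OE label. The *let-858* groups overlapped, with a log2 fold change of -0.08 (SE 0.11, adjusted p = 0.956, edgeR). In deviations from the group means, correlated across genes, WT replicate 3 went with *fmo-4* OE replicate 2 (r = 0.48) and replicate 3 (r = 0.34), and *fmo-4* OE replicate 1 with WT replicate 1 (r = 0.38) and, more weakly, WT replicate 2 (r = 0.20). The libraries are divided accordingly below, with WT replicates 1 and 2 and *fmo-4* OE replicate 1 on one side. Genes are not independent replicates, and these r values are descriptions. Of 19 marker genes for 8 tissues of the adult, 18 had reads in every library, and the epidermal collagen gene *rol-6* was at 0 in 2. Summed normalized counts of the 3 sperm markers ran from 105 to 525 in WT and from 103 to 132 under the *fmo-4* OE label. *gsp-3* and *gsp-4* had an unadjusted p under 0.05 with overlapping groups (adjusted p = 0.583 for each, edgeR), and *spe-11* had an unadjusted p = 0.249 (edgeR). Summed normalized counts of the 3 epidermal markers, most of them from *col-19*, ran from 9247 to 29657 in WT and from 8801 to 23294 under the *fmo-4* OE label. Among them *dpy-7* was higher under that label, at 69.6 ± 79.9 (SD, n = 3) in WT and 311 ± 160 (SD, n = 3), with overlapping groups and a log2 fold change of 2.18 (SE 0.86, unadjusted p = 0.0403, adjusted p = 0.642, edgeR). The part of these shifts in the values of the 5 genes was not tested, and in whole worms fewer cells of a type and less RNA per cell cannot be told apart.

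*C. elegans* genes without a function-based name are called by the clone on which they were first sequenced and a number, as 4 of these 5 are. *gfi-1* takes its name from an interaction with GEI-4 and is annotated as a protein with ET modules that bound UNC-68, the ryanodine receptor that releases calcium from the sarcoplasmic reticulum of muscle, in yeast two-hybrid assays. *B0205.13* is annotated as a small protein conserved in other *Caenorhabditis* species. No function is annotated for *D2030.7* or *C18D4.6* in the sources used here. *W06A11.4* is listed as protein coding in the deposited table and as a pseudogene in the RefSeq and Ensembl annotations, that is, a gene-like stretch not thought to encode a working protein.

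The gene models differ widely in size. In the Ensembl annotation of the reference (WBcel235), *D2030.7* has 1 transcript of 9 exons and 428 codons. The single *gfi-1* transcript has 5 exons and 2153 codons, and 1 exon alone takes 5536 of its 6633 exon bases. *B0205.13* is the smallest of the coding genes with a single transcript, with 2 exons and 99 codons. *C18D4.6* has 3 transcripts of 298, 320 and 45 codons, and *W06A11.4* has 6 exons and no coding sequence. The files give no counts per transcript, so which *C18D4.6* transcript the reads came from was not analysed here.

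*D2030.7* lies on chromosome I from 7588653 to 7590570 on the plus strand in the deposited coordinates, whose genome build is not given in the sources used here. Its normalized counts were 3467, 2826 and 1979 in WT replicates 1, 2 and 3, against 869, 514 and 545 under the *fmo-4* OE label, in the same order of replicates. Every WT library was above every library labelled *fmo-4* OE, and the lowest WT library was 2.28 times the highest of the other group. The means were 2757 ± 747 (SD, n = 3) and 643 ± 196 (SD, n = 3), which was 4.29-fold lower under the *fmo-4* OE label, with a log2 fold change of -2.10 (SE 0.28). Libraries also differed within each group, with a highest-to-lowest ratio of 1.75 in WT and 1.69 under the *fmo-4* OE label. The coefficient of variation (CV, SD over mean) was 27.1% and 30.6%, where the median of 2011 genes of like abundance was 14.1% and 13.2%. WT replicate 3 was the lowest WT library. Comparing within the division of libraries given above, *fmo-4* OE replicate 1 over WT replicates 1 and 2 gave a log2 ratio of -1.86, and *fmo-4* OE replicates 2 and 3 over WT replicate 3 gave -1.90.

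*gfi-1* lies on chromosome V from 6392536 to 6399921 on the minus strand. In the WT libraries, in the order of their numbers, normalized counts were 2998, 2777 and 3307, and in those labelled *fmo-4* OE 1590, 1371 and 1688. The groups did not overlap, and the lowest WT library was 1.65 times the highest library labelled *fmo-4* OE. Means were 3028 ± 266 (SD, n = 3) in WT and 1550 ± 162 (SD, n = 3) under the *fmo-4* OE label, 1.95-fold lower, with a log2 fold change of -0.97 (SE 0.14). This was the smallest fold change of the 5 genes, on 2458 to 3759 reads in a WT library. The CV was 8.79% in WT and 10.5% under the *fmo-4* OE label, below the median of 13.5% and 13.2% for 1843 genes of like abundance.

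The genes tied to *gfi-1* by annotation gave values without a call. *gei-4*, after which *gfi-1* is named, had normalized counts of 3458 ± 132 (SD, n = 3) in WT and 4074 ± 659 (SD, n = 3) under the *fmo-4* OE label, a log2 fold change of 0.24 (SE 0.14, adjusted p = 0.853, edgeR). *unc-68* had 1101 ± 236 (SD, n = 3) and 1012 ± 168 (SD, n = 3), a log2 fold change of -0.12 (SE 0.21, adjusted p = 0.956, edgeR). *bcf-1*, which lies beside *gfi-1* and is described with the neighbours, was listed with them. Of these 3 genes, 0 had an adjusted or an unadjusted p under 0.05 with all libraries, where 0.0447% and 7.34% of all genes tested did. With the library division as a covariate *bcf-1* had an unadjusted p = 0.00325 (adjusted p = 0.363, edgeR). On dropping the first library labelled *fmo-4* OE, *gei-4* had an unadjusted p = 0.0239 (adjusted p = 0.417, edgeR). The log2 fold change of *unc-68* turned to 0.05 with the library division as a covariate.

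*B0205.13* lies on chromosome I from 10727751 to 10728795 on the minus strand. It had 42, 24 and 63 reads in the WT libraries, against 271, 340 and 193 under the *fmo-4* OE label. Normalized counts were 42.5, 27.1 and 55.4 in WT and 310, 318 and 184 under the *fmo-4* OE label. The groups did not overlap, and the lowest library labelled *fmo-4* OE, replicate 3, was 3.30 times the highest WT library, replicate 3. Means were 41.7 ± 14.2 (SD, n = 3) and 271 ± 75.2 (SD, n = 3), 6.45-fold higher under the *fmo-4* OE label, with a log2 fold change of 2.69 (SE 0.35). This was the largest fold change of the 5 genes and also the one with the widest range within WT, where the highest library was 2.04 times the lowest. The log2 ratio was 3.15 for *fmo-4* OE replicate 1 over WT replicates 1 and 2, and 2.18 for *fmo-4* OE replicates 2 and 3 over WT replicate 3.

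*C18D4.6* lies on chromosome V from 17537651 to 17538373 on the minus strand. Its WT libraries held 70, 64 and 74 reads, and those labelled *fmo-4* OE 210, 235 and 247, or normalized counts of 70.9, 72.3 and 65.1 against 240, 220 and 236. Libraries within a group were close together, and the nearest libraries of the groups differed 3.03-fold. Means were 69.4 ± 3.81 (SD, n = 3) and 232 ± 10.5 (SD, n = 3), 3.34-fold higher under the *fmo-4* OE label, with a log2 fold change of 1.74 (SE 0.21). Its CV of 5.49% in WT and 4.52% under the *fmo-4* OE label was the lowest of the 5 genes, beside a median of 24.1% and 20.4% for 1518 genes of like abundance. A narrow spread within groups is also what a choice by non-overlap favours.

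*W06A11.4* lies on chromosome II from 4055939 to 4057653 on the plus strand. Reads numbered 85, 90 and 101 in WT and 290, 263 and 272 under the *fmo-4* OE label, or normalized counts of 86.0, 102 and 88.9 against 332, 246 and 260. The groups did not overlap, with the nearest libraries 2.42-fold apart. Means were 92.2 ± 8.34 (SD, n = 3) and 279 ± 45.8 (SD, n = 3), 3.03-fold higher under the *fmo-4* OE label, with a log2 fold change of 1.60 (SE 0.22). *fmo-4* OE replicate 1 was the highest library, and the log2 ratio was 1.82 within WT replicates 1 and 2 and *fmo-4* OE replicate 1, and 1.51 within the other libraries.

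**Figure D1:**
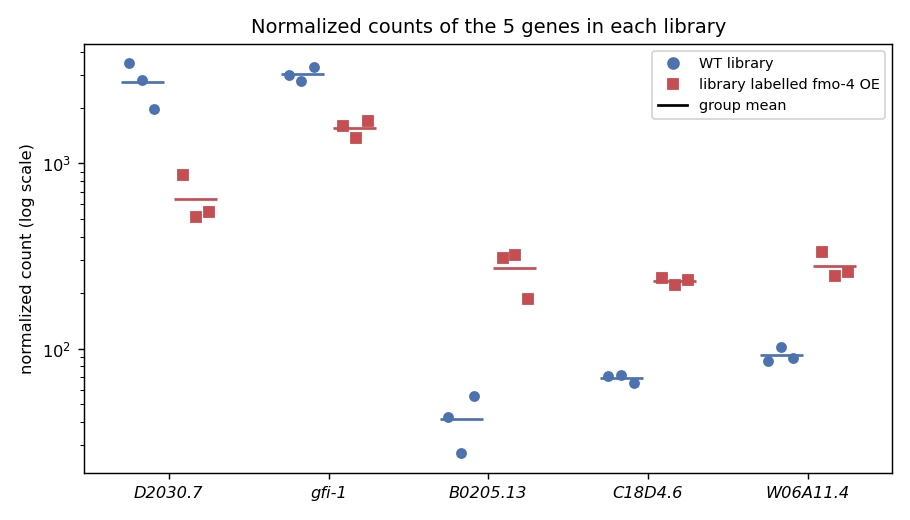
Normalized count (log axis) of each gene in each of the 3 WT libraries (circles) and the 3 libraries labelled *fmo-4* OE (squares), with a line at each group mean. *D2030.7* and *gfi-1* drop from means of 2757 and 3028 to 643 and 1550, and the other genes rise from means of 41.7 to 92.2 to means of 232 to 279, with no overlap of the groups for any of the 5.

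Of all 13413 genes tested, 1490 (11.1%) had groups that did not overlap, 785 (5.85%) of them higher and 705 (5.26%) lower under the *fmo-4* OE label. In 161 genes (1.2%) the nearest libraries of the groups were over 1.5-fold apart, as for all 5 chosen genes, and in 48 (0.358%) over 2-fold, as for all but *gfi-1*. Since the rule used these values, the comparison with the whole table is only a description. By this ratio *B0205.13* was 9th of all genes tested, *C18D4.6* 12th, *W06A11.4* 27th, *D2030.7* 31st and *gfi-1* 108th. By absolute log2 fold change they were 29th, 289th, 398th, 107th and 1121st, in the same order.

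Many of the genes with wider ratios had low counts. Among genes of like abundance, within a factor of 1.5 in mean count, 1 to 4 had a wider ratio than each of the 5. For *D2030.7*, none of the 2011 genes of like abundance had a larger absolute log2 fold change, and for *gfi-1* 10 of 1843 did. For *B0205.13* it was 3 of 1515, for *C18D4.6* 42 of 1518 and for *W06A11.4* 42 of 1502. Since the 5 were chosen by their distance, these counts among genes of like abundance are also only a description. The rule gives no threshold. Just wider and just narrower than *gfi-1*, the last of the 5, were *F36H5.4* and *fbxb-98*, with ratios of 1.65 and 1.64.

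**Figure D2:**
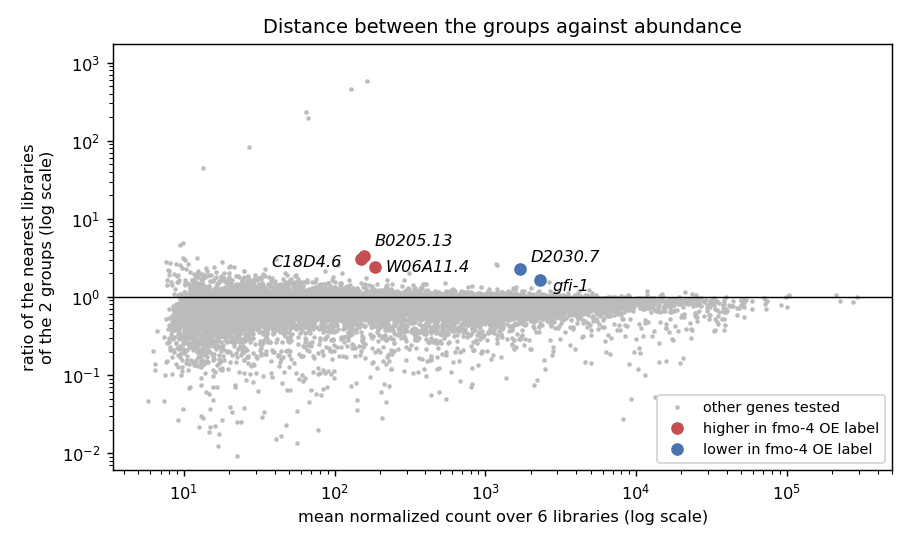
Ratio of the nearest libraries of the groups (log axis, above 1 where the groups do not overlap) against the mean normalized count over the 6 libraries (log axis) for all 13413 genes tested. The 5 named genes lie above 1, *gfi-1* at 1.65 and *B0205.13* at 3.30, and most other ratios above 2 belong to genes of lower count.

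Levels between genes can be compared only per length, here by the deposited FPKM (fragments per kilobase of gene length, scaled to sequencing depth). In WT, *D2030.7* was the highest of the 5 at 89.7 ± 26.2 FPKM (SD, n = 3), above 89.4% of the genes tested. *gfi-1* followed at 21.8 ± 1.68, then *B0205.13* at 4.47 ± 1.47 and *W06A11.4* at 4.21 ± 0.373, whose libraries overlapped in range. *C18D4.6* was the lowest at 2.66 ± 0.193 FPKM, above 29.1% of the genes tested. The deposited length of *C18D4.6*, 1248 bases, exceeds its deposited span of 723 bases, as in 360 genes of the table, so its level per length rests on a length that its coordinates do not hold.

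Under the *fmo-4* OE label the order of levels was another. *B0205.13* stood first at 29.1 ± 7.95 FPKM (SD, n = 3), with libraries that overlapped those of *D2030.7* at 20.9 ± 6.55. *W06A11.4* at 12.8 ± 2.21 and *gfi-1* at 11.2 ± 1.29 also overlapped each other, and *C18D4.6* was last at 8.89 ± 0.502. The highest and lowest of the 5 mean levels were thus 89.7 and 2.66 FPKM in WT and 29.1 and 8.89 FPKM under the *fmo-4* OE label. *D2030.7* went from above 89.4% of genes to above 60.3%, and *B0205.13* from above 37.1% to above 66.2%.

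**Figure D3:**
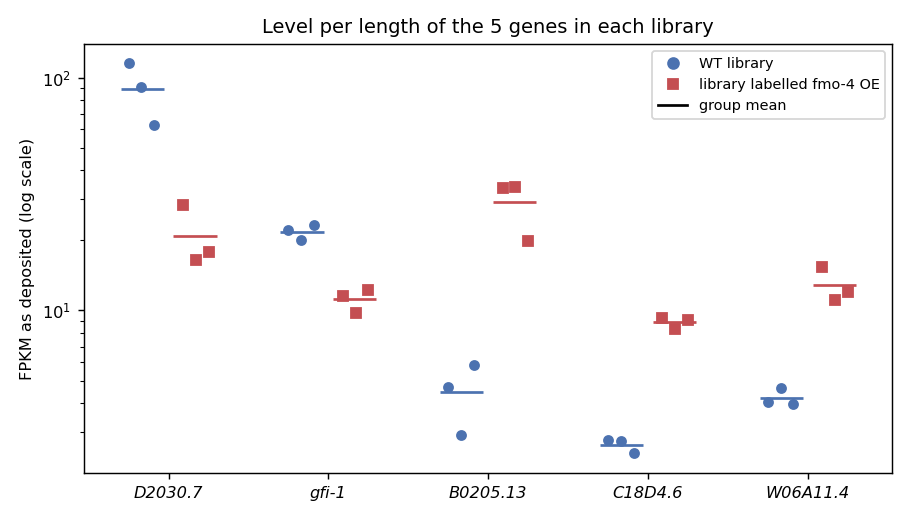
Deposited FPKM (log axis) of each gene in the 3 WT libraries (circles) and the 3 libraries labelled *fmo-4* OE (squares), with a line at each group mean. The 5 means lie between 2.66 and 89.7 FPKM in WT and between 8.89 and 29.1 FPKM under the *fmo-4* OE label.

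The genes beside the 5 on their chromosomes were not used by the rule and could be tested. In the Ensembl models *D2030.11* overlaps *D2030.7* and *F57F4.1* overlaps *gfi-1*, so their counts may hold reads of those genes. Of 50 neighbours, 5 on each side of each gene, 37 passed the filter on low counts, and 0 had an adjusted p under 0.05 (edgeR quasi-likelihood test, Benjamini-Hochberg over all genes tested, adjusted p 0.583 to 0.993), where 6 of all genes tested (0.0447%, of which 0.0149% higher and 0.0298% lower) did. DESeq2 also called 0 of them. At an unadjusted p under 0.05 there were 5 of 37 (13.5%), 1 higher and 4 lower under the *fmo-4* OE label, beside 7.34% of all genes tested (4.32% higher, 3.01% lower). Of the 5, *F57F4.1* had an unadjusted p under 0.05 without any 1 of the libraries, and the other 4 each lost it without at least 1. The count fell to 1 without WT replicate 1, to 2 without *fmo-4* OE replicate 3, and to 3 on dropping WT replicate 2, as on dropping the first library labelled *fmo-4* OE. Groups did not overlap in 24.3% of the 37, 4 higher and 5 lower under the *fmo-4* OE label. The share over all genes tested was 11.1% (5.85% higher, 5.26% lower). Around *gfi-1* there were 3 such genes, all lower, around *C18D4.6* 2, both higher, and around *W06A11.4* 2 higher and 2 lower. Around *D2030.7* and *B0205.13* there were 0. The median log2 fold change of the 37 was -0.06, and that of all genes tested -0.02. Within 100 kb between gene centres, 10 of 127 genes tested (7.87%) had an unadjusted p under 0.05.

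The genes around *D2030.7* had mean normalized counts from 36.9 (*D2030.12*) to 5991 (*prg-1*) in WT. *prg-1*, a Piwi-family Argonaute that binds piRNAs in the germline, starts 285 bases away on the opposite strand, and the genes are transcribed away from each other. Its normalized counts were 6215, 5925 and 5835 in WT and 6132, 6226 and 5222 under the *fmo-4* OE label, and the groups overlapped. The log2 fold change was -0.03 (SE 0.12, adjusted p = 0.970, edgeR). On the other side *D2030.11*, on the same strand, shares 65 bases with the deposited span of *D2030.7*, and 298 bases in the Ensembl models, so reads there could belong to either gene. Its normalized counts were 159, 163 and 345 in WT and 165, 385 and 312 under the *fmo-4* OE label, high in WT replicate 3 and in the libraries that went with it, with a log2 fold change of 0.37 (SE 0.41, adjusted p = 0.956, edgeR) that ran from 0.09 to 0.83 on dropping 1 library. All 10 neighbours of *D2030.7* passed the filter, and their log2 fold changes ran from -0.34 to 0.37 with no unadjusted p under 0.05. They include *ndub-7*, a subunit of mitochondrial complex I, *mce-1*, a methylmalonyl-CoA epimerase, and *lrp-1*, a large lipoprotein receptor of the epidermis.

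Beside *gfi-1* the nearest gene was low under the *fmo-4* OE label as well. *F57F4.1*, on the opposite strand, ends 64 bases from the 3′ end of *gfi-1* in the deposited coordinates, and in the Ensembl models the ends of both genes overlap by 31 bases. It had 56, 22 and 44 reads in WT and 10, 11 and 9 under the *fmo-4* OE label, without overlap of the groups. Normalized counts were 40.1 ± 16.0 (SD, n = 3) and 10.1 ± 1.43 (SD, n = 3), a log2 fold change of -1.98 (SE 0.44, unadjusted p = 0.00212, adjusted p = 0.583, edgeR), which did not pass the test over all genes. Whether the counting used strand is not given in the sources used here, so reads of *gfi-1* and *F57F4.1* cannot be told apart where the genes overlap, and whether *gfi-1* reads entered the *F57F4.1* count was not tested.

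On the upstream side of *gfi-1*, 1447 bases away on the same strand, lies *bcf-1*, a gene named for bacterial colonization of the gut. Its normalized counts were 5426, 4704 and 6964 in WT and 4106, 5143 and 4758 under the *fmo-4* OE label, and the groups overlapped. The log2 fold change was -0.29 (SE 0.17, adjusted p = 0.845, edgeR). On the downstream side, where *F57F4.1* lies, *F13H6.4* is 24026 bases from *gfi-1*. *F13H6.4* was at 37.9 ± 0.861 (SD, n = 3) in WT and 21.5 ± 4.91 (SD, n = 3) under the *fmo-4* OE label. Its log2 fold change was -0.81 (SE 0.34, unadjusted p = 0.0439, adjusted p = 0.655, edgeR). Of the 8 neighbours of *gfi-1* tested, 7 had a log2 fold change below 0, with a median of -0.32, and 0 had an adjusted p under 0.05. The median was -0.10 for the 25 genes tested within 100 kb of *gfi-1*, and -0.02 for all genes tested. A lean to 1 sign was not particular to *gfi-1*. Around *D2030.7* 8 of 10 were below 0 (median -0.14), and around *C18D4.6* 3 of 4 were above 0 (median 0.66). Above 0 were also 5 of 8 around *B0205.13* (median 0.03) and 5 of 7 around *W06A11.4* (median 0.16). The median for the 7 genes within 100 kb of *C18D4.6* was 0.60.

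*B0205.13* has *B0205.8* 99 bases away on the same strand. Normalized counts of *B0205.8* were 192, 246 and 782 in WT and 201, 663 and 753 under the *fmo-4* OE label. They were high in WT replicate 3 as in the second and the third library labelled *fmo-4* OE, and low elsewhere, so that the groups overlapped, with a log2 fold change of 0.40 (SE 0.66, adjusted p = 0.956, edgeR). That value ran from 0.05, on dropping WT replicate 1, to 1.29, on dropping WT replicate 3 (unadjusted p = 0.0493, edgeR), and turned to -0.13 with the library division as a covariate. *B0205.13* did not follow that order, since WT replicate 3 was under every library labelled *fmo-4* OE. On the other side, *B0205.14* had 0 to 7 reads in a library and was not tested. *B0205.10*, the fifth gene on that side, had normalized counts of 113, 28.2 and 114 in WT and 16.0, 39.3 and 19.1 under the *fmo-4* OE label, with a log2 fold change of -1.77 (SE 0.59, unadjusted p = 0.0179, adjusted p = 0.583, edgeR), opposite in sign to *B0205.13*. It ran from -2.28, on dropping the second library labelled *fmo-4* OE, to -1.51, on dropping WT replicate 3, and its unadjusted p was 0.0551 without WT replicate 1, 0.0536 and 0.0602 without the first and the third library labelled *fmo-4* OE, and 0.0674 with a replicate block (edgeR). The highly expressed neighbours *rpn-10*, a ubiquitin receptor of the proteasome, and *kin-3*, the catalytic subunit of casein kinase II, had log2 fold changes of 0.01 and 0.13.

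*C18D4.6* lies among genes with few reads, and only 4 of its 10 neighbours passed the filter. The nearest genes were *C18D4.10*, listed as a pseudogene in the deposited table, and the long noncoding RNA gene *linc-14*. *C18D4.10* had mean normalized counts of 1.94 in WT and 1.25 under the *fmo-4* OE label and was not tested. *linc-14* had a log2 fold change of 0.73 (SE 1.12, adjusted p = 0.956, edgeR). The value for *linc-14* ran from 0.15, on dropping WT replicate 1, to 2.11, on dropping WT replicate 3, and turned to -0.15 with the library division as a covariate. *fbxa-175*, named as an F-box gene and listed as a pseudogene in the deposited table, and *C38D9.8* had groups that did not overlap, both higher under the *fmo-4* OE label, at unadjusted p of 0.177 and 0.192 (edgeR).

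Around *W06A11.4* 7 of 10 neighbours were tested. *K07D4.1*, listed as a pseudogene, is the nearest on one side, 6809 bases away, with a log2 fold change of 0.16 (SE 0.36, adjusted p = 0.961, edgeR), which turned to -0.12 on dropping WT replicate 1 and to -0.11 on dropping the second library labelled *fmo-4* OE. *gadr-4*, 1302 bases away on the opposite strand, had 24.0 ± 5.45 (SD, n = 3) and 35.5 ± 6.17 (SD, n = 3) normalized counts, without overlap of the groups, and a log2 fold change of 0.56 (SE 0.36, adjusted p = 0.869, edgeR). The next gene, *fbxb-118*, an F-box gene of the type whose proteins present substrates to ubiquitin ligases, had 1, 6 and 7 reads in WT and 13, 11 and 27 under the *fmo-4* OE label, a log2 fold change of 1.84 (SE 0.69, unadjusted p = 0.0288, adjusted p = 0.597, edgeR). *W06A11.1*, the gene after it, went the other way, from 23.4 ± 10.2 (SD, n = 3) to 10.2 ± 3.53 (SD, n = 3) normalized counts, a log2 fold change of -1.16 (SE 0.50, unadjusted p = 0.0475, adjusted p = 0.669, edgeR). *rpn-11*, the deubiquitinase of the proteasome lid, with mean normalized counts of 4739 and 5217, had a log2 fold change of 0.14.

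**Figure D4:**
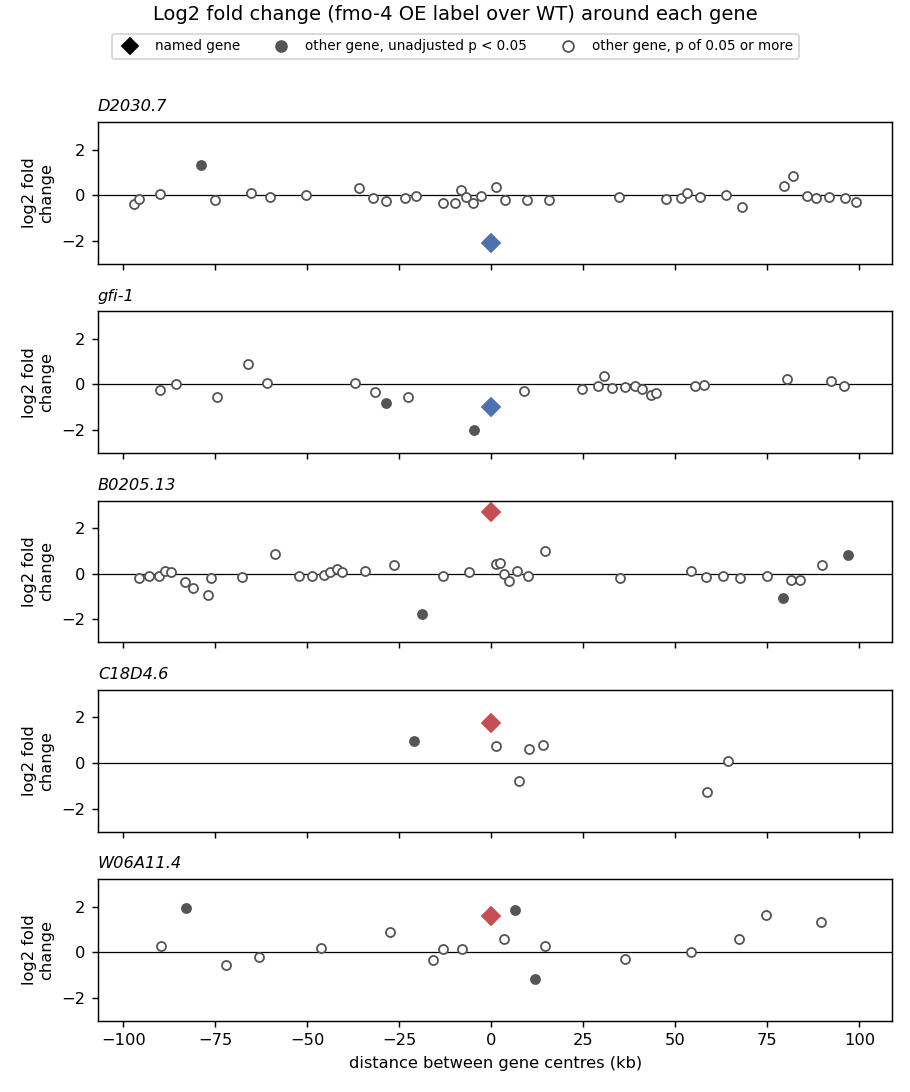
Log2 fold change (*fmo-4* OE label over WT) of each gene tested against the distance of its centre from that of the named gene (kb), in 1 panel for each of the 5 genes (diamonds, blue for lower and red for higher). Filled circles are the 10 of 127 genes with an unadjusted p under 0.05, open circles the rest, and *F57F4.1* at -1.98 is the filled circle next to *gfi-1*.

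The genes whose pattern over the 6 libraries was most like that of each of the 5 were sought among 10059 genes with a mean normalized count of at least 50, by Pearson's r of log2 normalized counts. These r values come from the same 6 libraries, share the difference between the groups on which the 5 were chosen, and are descriptions. For *D2030.7* they were *D1086.6* (r = 0.991), *C09B8.4* (0.991) and the fucosyltransferase gene *fut-1* (0.985), with log2 fold changes of -0.52, -0.39 and -0.42. For *gfi-1* they were *Y16B4A.2* (0.998), *zig-3* (0.980), which encodes a secreted immunoglobulin-domain protein, and *unk-1* (0.979), with log2 fold changes of -0.55, -1.11 and -0.66. The changes were smaller than that of *D2030.7* or *gfi-1*, except for *zig-3*, whose change was larger than that of *gfi-1*.

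For *B0205.13* the 3 genes were the acid phosphatase gene *pho-9* (0.976), *F48E8.3* (0.969) and the posterior Hox gene *php-3* (0.962). *F48E8.3* had a log2 fold change of only 0.07, so a high r here says nothing of the size of a change. *C18D4.6* and *W06A11.4* shared *fbxb-7*, an F-box gene (0.996 and 0.994), and *T10D4.6* (0.986 and 0.988) among their 3 genes. The remaining ones were *T05H10.4* for *C18D4.6* (0.986) and *sdc-3*, a dosage compensation gene, for *W06A11.4* (0.988). *fbxb-7* was at 104, 115 and 105 normalized counts in WT and 226, 202 and 221 under the *fmo-4* OE label, a log2 fold change of 1.00. The log2 fold change was 1.91 for *T10D4.6* and 1.86 for *sdc-3*, larger than those of *C18D4.6* and *W06A11.4*, and 0.31 for *T05H10.4*. Above r = 0.95 there were 43 genes for *D2030.7*, 26 for *gfi-1*, 17 for *C18D4.6*, 14 for *W06A11.4* and 5 for *B0205.13*.

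Leaving out 1 library at a time kept the direction of all 5. The log2 fold change ran from -2.36 to -1.91 for *D2030.7*, from -1.03 to -0.89 for *gfi-1*, from 2.46 to 2.95 for *B0205.13*, from 1.69 to 1.77 for *C18D4.6* and from 1.47 to 1.68 for *W06A11.4*. *B0205.13* moved most, with 2.46 without WT replicate 2 and 2.95 without WT replicate 3. Since groups that do not overlap keep their direction when a library is left out, these ranges describe only the size.

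**Figure D5:**
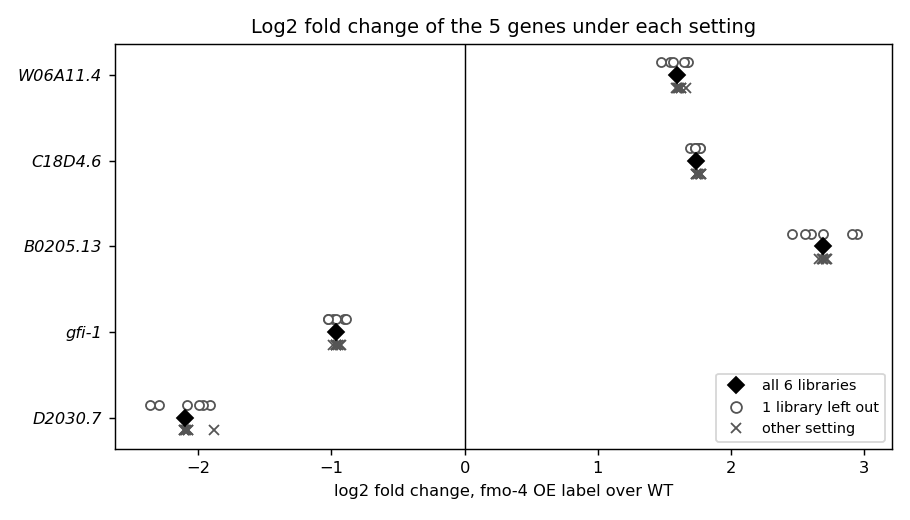
Log2 fold change (*fmo-4* OE label over WT) of each of the 5 genes with all 6 libraries (diamonds), with 1 library left out (open circles) and under the other settings for scaling, filter, covariates and tool (crosses). The values stay on the same side of 0, between -2.36 and -0.89 for *D2030.7* and *gfi-1* and between 1.47 and 2.95 for the others.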

How the data were processed

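RNA of 6 libraries of whole day 1 adults was sequenced after poly-T bead selection, and samples were grouped by their labels. The authors deposited raw read counts per gene and FPKM values (fragments per kilobase of gene length, scaled to depth by the authors) in 1 table of 20138 genes. The submitters' processing notes name fastp, HISAT2, StringTie and featureCounts, and the build, the annotation and the strand setting are not given in the sources used here. A further deposited signal, the counts divided by the authors' size factor per library, served only to check the table. The authors' own log2 fold changes and p-values were not used.

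Counts were tested with edgeR 4.0.16 (TMM scaling, filterByExpr, robust quasi-likelihood F-test, 13413 genes, Benjamini-Hochberg adjustment) in R 4.3.3, and DESeq2 1.42.0 was an alternative. The fit was tested on simulated data with less spread between replicates than these libraries and without their division. That test therefore does not show how the fit performs on these libraries. A normalized count is the count divided by the TMM-scaled library size relative to its mean, and an SE was computed from the log2 fold change and its F value. The ratio of the nearest libraries used a pseudocount of 0.5. Libraries held 17576872 to 24943501 reads, and the counting error is largest for genes with few reads. Reads without molecular identifiers are not independent molecules. Labels call the replicates biological, and nothing else says how they were raised. Gene symbols and model sizes came from RefSeq and Ensembl tables (19815 genes matched).

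Named genes are the 5, their nearest and overlapping neighbours, and neighbours with an unadjusted p under 0.05. They also include the 3 genes most like each, *fmo-4*, *let-858*, *gei-4* and *unc-68*. Further neighbours named for their known roles, their lack of overlap or a value beside the 5 were picked with their values in view. The 5 genes and all lists were chosen with earlier results of these data known. Related proteins and promoter motifs were planned and not analysed here, since no sequences were used.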

Additional observations from a re-analysis of the deposited data

How the results depend on the processing

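The log2 fold changes of the 5 genes moved by less than the spread between replicates under each other setting and without any 1 library (35 values and 30 values over the 5 genes). The number of all genes called at an adjusted p under 0.05 was less settled: 6 with edgeR became 984 at an unadjusted p, 10 with no filter beyond 1 count, 0 when each library had to hold at least 10 counts, 12 with the library division as a covariate and 122 with DESeq2 (56 higher, 66 lower), and without 1 library it ran from 0, on dropping WT replicate 1, to 131, on dropping WT replicate 2, with 3 on dropping *fmo-4* OE replicate 2 or 3. The 5 neighbours with an unadjusted p under 0.05 became 3 of 22 tested with 3 genes on each side, 3 with no filter, 2 under the minimum of 10 counts and 3 with DESeq2, and ran from 1 to 5 without 1 library. The cause of these changes was not tested, except that 3 genes on each side and the stricter filter test fewer genes. Replicate numbers did not pair the libraries (correlations of deviations of same-numbered libraries 0.38, -0.30 and 0.34), and with a replicate block 5 genes were called and 4 neighbours had an unadjusted p under 0.05. A stricter match of related proteins was planned and not run. With 3 libraries a group and no rise of *fmo-4* itself, the values compare libraries by their label. For *B0205.13*, *C18D4.6* and *W06A11.4*, WT counts of 24 to 101 reads limit the precision of each fold.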
